A study of Mus musculus with 6 samples.

Results

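The genes followed here encode the central factors of nonsense-mediated decay, the pathway that removes mRNAs whose translation stops too early. They are Upf1, Upf2, Upf3a, Upf3b, Smg1, Smg5, Smg6, Smg8 and Smg9, taken by symbol and not by any measured value, though with earlier results of these data known. They make up 9 of the 36008 genes in the gene table and 45 of the 116622 annotated transcripts that could be matched to GENCODE M21 (build GRCm38). All 9 passed the filter on low counts, as did 20315 genes in all.

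Hippocampus was taken from 3 WT and 3 Prmt9 KO mice, all female, 2 weeks old and of the B6J strain, and same-sex littermates served as controls. The knockout was made in the whole body by deleting the floxed exon 5 of Prmt9 with CMV-Cre, so the deletion is not limited to a cell type. PRMT9 is an arginine methyltransferase that acts on the splicing factor SF3B2, and the series asked which genes differ in expression or splicing without it. Stranded polyA RNA libraries were sequenced from each mouse. The labels name no treatment for either genotype.

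The deposited transcript counts summed to between 194098391 and 286771677 per mouse. Prmt9 itself stood at 11.8, 15.2 and 14.96 TPM (a level set against all transcripts of a library and corrected for length and depth) in the WT mice and at 3.93, 4.61 and 4.67 TPM in the Prmt9 KO mice. Its fold was 0.306 of WT (95% interval 0.260 to 0.362, edgeR, adjusted p = 0.0327), so the genotypes did not overlap although the adjusted p missed the limit of 0.01 used here. WT replicate 1 and Prmt9 KO replicate 1 stood apart from the other 4 mice on the first principal component of the genes' log2 CPM, which held 67.4% of the variance. All genes of the 7 marker lists, from neurons to choroid plexus, had a mean of at least 1 TPM. The summed oligodendrocyte lineage markers ranged from 1756 to 9587 TPM in WT and from 937 to 9400 TPM in Prmt9 KO, lowest in the mouse numbered 1 of each genotype. Those of choroid plexus and ependyma ranged from 630 to 7292 TPM in WT, highest in WT replicate 1. In Prmt9 KO they ranged from 890 to 3346 TPM, lowest in Prmt9 KO replicate 1. Those of endothelial and mural cells were highest in the mice numbered 1, at 187 (WT) and 181 TPM (Prmt9 KO), against 120 to 139 TPM in the other mice. In bulk tissue, fewer cells of a type and less RNA per cell cannot be told apart. The tests and counts over genes, transcripts and events are therefore also given without the mice numbered 1.

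Nonsense-mediated decay couples translation to mRNA turnover. A ribosome that stops upstream of an exon junction complex leaves the helicase UPF1 in contact with UPF2 and UPF3 proteins, the kinase SMG1 phosphorylates UPF1, and phosphorylated UPF1 draws in SMG5, SMG6 and further factors, which cut the mRNA or start its deadenylation and decapping. In brain the pathway is known for its role in neuronal development and for mutations of UPF3B in intellectual disability, and the mRNAs of several of its own factors are known to be among its targets.

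The UPF proteins came first. Upf1 (chr8:70331525-70353278, minus strand), the helicase, was at 20.9, 33.9 and 33.1 TPM in the WT mice and at 23.5, 31.01 and 32.2 TPM in the Prmt9 KO mice. The mice numbered 1 were the lowest of both genotypes, and the ranges overlapped. The fold of Upf1 was 0.947 (95% interval 0.755 to 1.19, edgeR, adjusted p = 1).

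Upf2 (chr2:5951469-6056703, plus strand) encodes the adaptor that joins UPF1 to UPF3 proteins. It was at 9.63, 21.3 and 20.4 TPM in WT and at 11.7, 21.97 and 20.5 TPM in Prmt9 KO. Replicates 2 and 3 of both genotypes lay within 20.4 to 21.97 TPM, and the mice numbered 1 reached 46.1% (WT) and 55.3% (Prmt9 KO) of the mean of their own genotype's other mice. The fold of Upf2 was 1.03, with the wide 95% interval of 0.583 to 1.82 (edgeR, adjusted p = 1).

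Upf3a (chr8:13785615-13799193, plus strand) and Upf3b (chrX:37091678-37110322, minus strand) are paralogs whose products link UPF2 to the exon junction complex, UPF3B being the stronger activator. Upf3a was at 28.4, 36.4 and 35.6 TPM in WT and at 32.5, 36.7 and 37.3 TPM in Prmt9 KO. Upf3b was at 12.5, 21.9 and 22.4 TPM in WT and at 18.2, 22.9 and 23.9 TPM in Prmt9 KO. For both genes replicates 2 and 3 of Prmt9 KO lay above replicates 2 and 3 of WT, and the mouse numbered 1 of each genotype lay below, so that the genotypes overlapped. The folds were 1.01 for Upf3a (95% interval 0.877 to 1.16, edgeR, adjusted p = 1) and 1.08 for Upf3b (0.843 to 1.39, adjusted p = 1). The ratio of Upf3a to Upf3b TPM averaged 1.84 ± 0.379 over the WT mice and 1.65 ± 0.119 over the Prmt9 KO mice (SD, n = 3, exact two-sided permutation test, p = 0.6), and was highest in the mice numbered 1, at 2.28 and 1.78.

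The SMG1 kinase complex holds the catalytic subunit SMG1 and the regulatory subunits SMG8 and SMG9. Smg1 (chr7:118131308-118243670, minus strand) was at 19.8, 45.4 and 45.9 TPM in WT and at 27.5, 47.9 and 47.2 TPM in Prmt9 KO. The mice numbered 1 reached 43.4% and 57.7% of the other mice of their genotype, and the genotypes overlapped. Smg1 had the largest fold of the 9 genes, 1.11, and also the largest standard error of log2 fold change, 0.36 (95% interval of the fold 0.608 to 2.03, edgeR, adjusted p = 1).

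Smg8 (chr11:87077732-87086774, minus strand) differed from the other 8 genes in that Prmt9 KO replicate 1 was not low. It was at 8.36, 10.1 and 10.01 TPM in WT and at 10.5, 10.2 and 9.999 TPM in Prmt9 KO, so 5 of the 6 mice lay between 9.999 and 10.5 TPM and WT replicate 1 alone lay lower. Smg9 (chr7:24399619-24422778, plus strand) was at 31.4, 43.3 and 43.8 TPM in WT and at 35.1, 40.0 and 42.2 TPM in Prmt9 KO. The genotypes of Smg9 overlapped through the mice numbered 1, while replicates 2 and 3 of Prmt9 KO lay below those of WT. The folds were 1.03 for Smg8 (0.855 to 1.23, edgeR, adjusted p = 1) and 0.951 for Smg9 (0.829 to 1.09, adjusted p = 1).

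SMG5 and SMG6 act on phosphorylated UPF1. SMG6 is the endonuclease that cuts near the premature stop, and SMG5 helps to bring in deadenylation and decapping. Smg5 (chr3:88336260-88362338, plus strand) was at 47.5, 70.7 and 72.0 TPM in WT and at 66.5, 74.1 and 73.0 TPM in Prmt9 KO. Smg6 (chr11:74925823-75164448, plus strand) was at 15.8, 22.5 and 23.1 TPM in WT and at 18.1, 21.9 and 24.9 TPM in Prmt9 KO. Both mice numbered 1 were the lowest for each gene, and the genotypes overlapped. The folds were 1.05 for Smg5 (0.904 to 1.23, edgeR, adjusted p = 1) and 0.999 for Smg6 (0.753 to 1.33, adjusted p = 1).

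**Figure D1:**
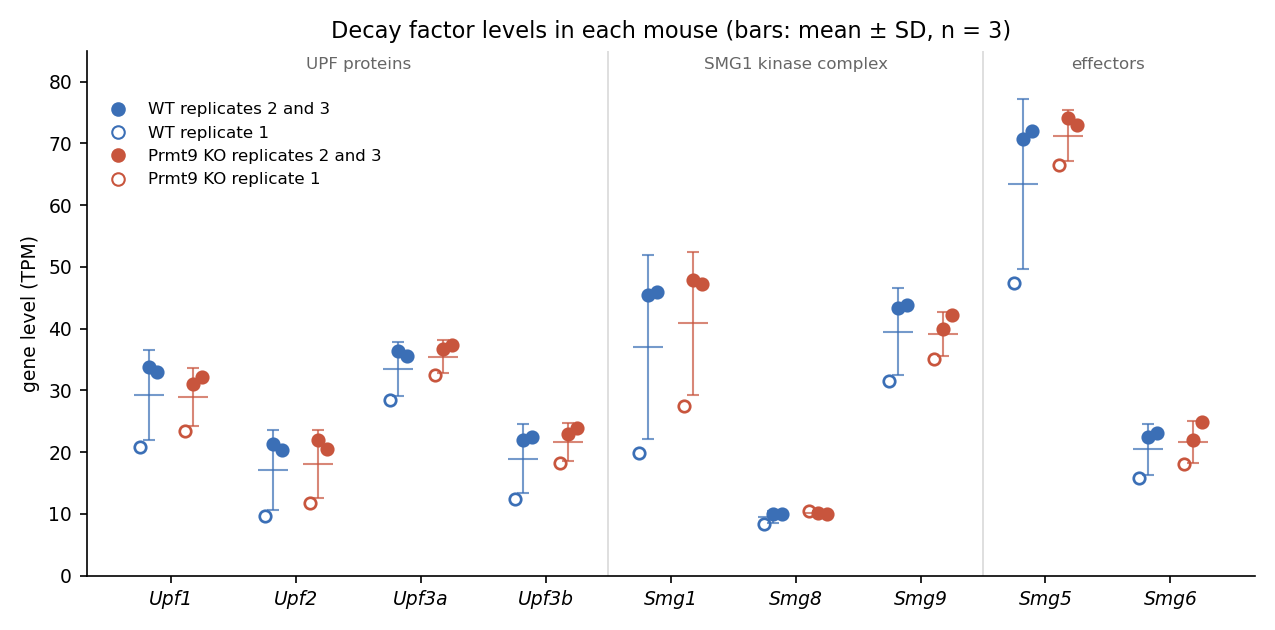
Gene level in TPM (vertical axis) of each decay factor in the 6 mice, WT in blue and Prmt9 KO in red, with open circles for the mice numbered 1 and bars for the mean ± SD of 3 mice. In 8 of the 9 genes both open circles lie below all 4 filled ones, and the genotypes overlap in all 9.

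None of the 9 genes was called. The limits of the edgeR call, an adjusted p below 0.01 with a fold above 1.5, were met by 0 of the 9, with 0% of the 20315 genes called in all. At an unadjusted p below 0.05 it again held 0 of the 9, against 1.24% of all genes, and DESeq2 called 0 of the 9, against 0.00708% of 28250 genes. In gene TPM, 0 of the 9 had genotypes that did not overlap, against 5.97% of the 15200 genes with a mean of at least 1 TPM (4.82% with all Prmt9 KO mice higher and 1.15% with all lower). The log2 fold changes ran from -0.08 to 0.15 with a median of 0.04, against a median of -0.01 over all genes tested.

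The width of the intervals moved with the mice numbered 1. Both of these mice lay below the other 4 in 8 of the 9 genes, which was also so for 48.7% of all genes, while 22.1% of all genes had both above. When a term for these mice was added to the edgeR fit, the folds of the 9 genes kept within 95% intervals of 0.883 to 1.41, and without these mice within 0.890 to 1.13, where all 6 mice gave 0.583 to 2.03. At an unadjusted p below 0.05 the edgeR fit with the term held 0 of the 9 genes, against 9.74% of all genes, and the fit without these mice held 0 of the 9, against 16.4%. The lowest unadjusted p was then 0.0685, for Upf1 (edgeR, adjusted p = 0.339, log2 fold change -0.08), followed by 0.0783 for Smg5 (adjusted p = 0.354, log2 fold change 0.07). Without the mice numbered 1 the TPM of 6 of the 9 genes did not overlap between the genotypes, and neither did 51.2% of all genes. With WT replicate 1 alone left out it was 2 of the 9 (34.8% of all genes), with Prmt9 KO replicate 1 alone left out 4 (19.7%), and in TMM-normalized CPM of all mice 1, Smg9 (6.36%).

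**Figure D2:**
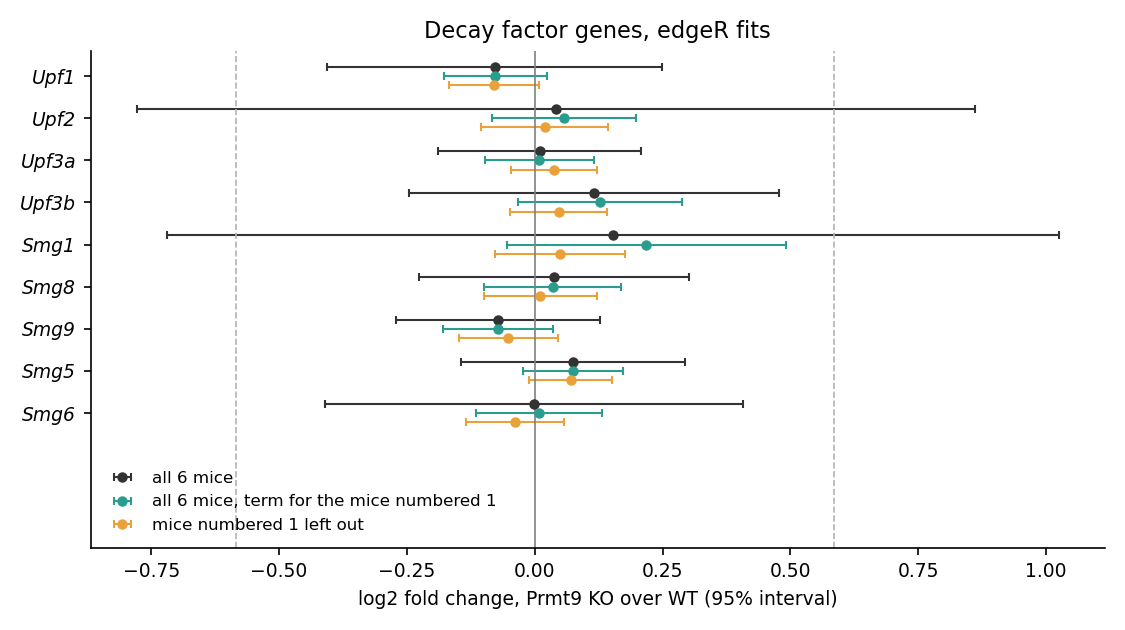
Log2 fold change of Prmt9 KO over WT (horizontal axis) with its 95% interval for each decay factor, from edgeR fits of all 6 mice, of all 6 with a term for the mice numbered 1, and of the 4 mice left without them. Dashed lines mark a fold of 1.5 in either direction: all intervals span 0, and only those of Upf2 and Smg1 from the fit of all 6 mice reach past a dashed line.

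The low values in the mice numbered 1 went in part with transcript length. Per main coding transcript, WT replicate 1 held 33.2% of the mean of WT replicates 2 and 3 for Smg1 (15557 bases), 30.2% for Upf2 (5174 bases) and 44.5% for Smg6 (5848 bases). It held 83.6% for Upf3a (2057 bases), 88.0% for Smg9 (2242 bases) and 83.3% for Smg8 (3218 bases). Upf3b, at 59.2% with 2344 bases, lay lower than these transcripts of similar length. In Prmt9 KO replicate 1 the same transcripts held from 43.6% (Upf2) to 103% (Smg8) of replicates 2 and 3. Over all genes the median transcript under 2000 bases was at 123% in WT replicate 1 and 118% in Prmt9 KO replicate 1. It was at 82.7% and 96.5% from 2000 to under 4000 bases and at 68.4% and 87.0% from 4000 to under 6000. For 6000 bases or more it was at 59.8% and 78.1%. In WT replicate 1, Upf1, Upf2, Upf3b, Smg1 and Smg6 lay below the median of their length class, and Upf3a, Smg5, Smg8 and Smg9 above it. What sets these mice apart was not tested.

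**Figure D3:**
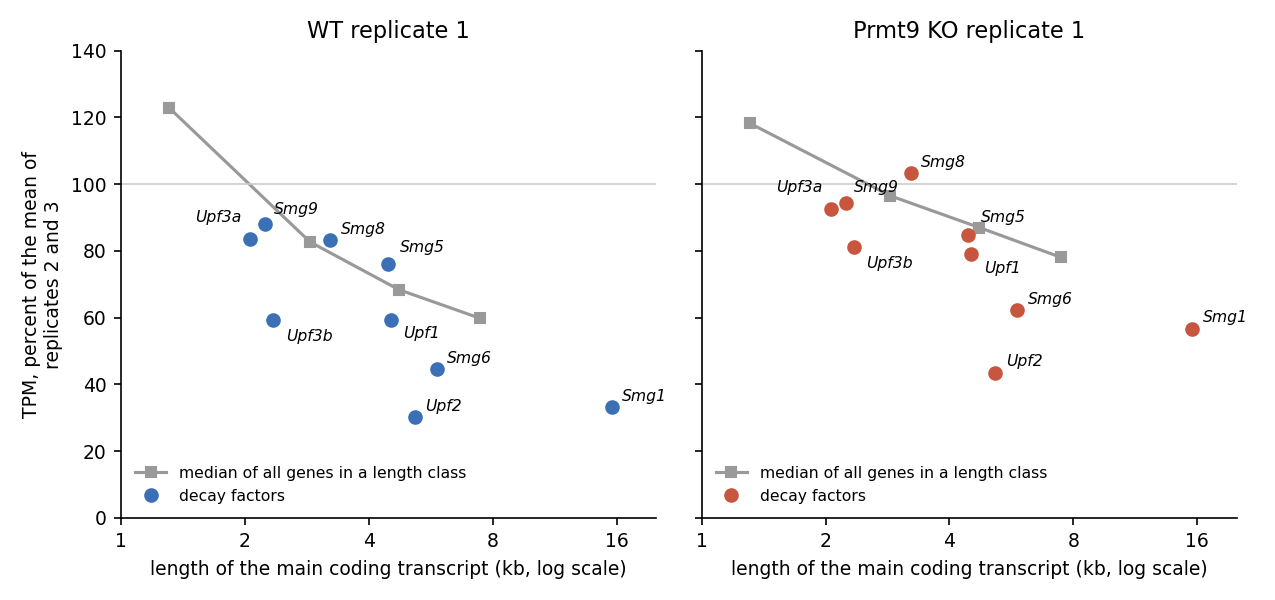
TPM of the main coding transcript in replicate 1 as a percent of the mean of replicates 2 and 3 (vertical axis) against its length in kilobases (horizontal axis, log scale), for WT on the left and Prmt9 KO on the right. Grey squares are medians of all genes in 4 length classes, and Smg1, Upf2 and Smg6 lie lowest among the decay factors in both genotypes.

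The order of the levels was read within each mouse, in TPM. Smg5 led with a mean of 67.3 ± 10.1 TPM (SD over the 6 mice), above Smg9 in 6 of 6 mice. Smg9 (39.3 ± 4.99) and Smg1 (39.0 ± 12.1) did not differ beyond their spread, with Smg9 higher in 2 of 6 mice, and Smg1 lay above Upf3a (34.5 ± 3.42) in 4 of 6. Then came Upf1 (29.1 ± 5.48), below Upf3a in 6 of 6 mice, and a close pair, Smg6 (21.04 ± 3.41) and Upf3b (20.3 ± 4.30), with Smg6 higher in 4 of 6. Upf2 (17.6 ± 5.42) and Smg8 (9.84 ± 0.748) closed the order, each below its neighbour in 6 of 6 mice. For comparison, 15200 genes had a mean of at least 1 TPM with a median of 19.5 TPM, so Smg5 lay above 81.7% of them and Smg8 above 34.1%. When only transcripts annotated as protein coding were summed, Smg5 (35.8 TPM) still led and Smg8 (9.84 TPM) still came last, but Smg9 moved to the fifth place with 21.02 TPM and Upf3a to the second with 29.9 TPM.

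That shift came from transcripts without an annotated coding role. Of the 45 transcripts, 18 are annotated as protein coding, 17 as retained intron, 7 as processed transcripts and 3 as decay substrates, and 28 had a mean of at least 1 TPM. Retained-intron transcripts held 16.6% ± 1.04 of the summed TPM of the 9 genes in the WT mice and 17.0% ± 0.265 in the knockouts (SD, n = 3), against 7.44% and 7.64% over all genes with a coding transcript. They were concentrated in Smg9, with 46.3% ± 5.97 of gene TPM in WT and 45.8% ± 3.18 in Prmt9 KO, and in Smg5, with 34.0% ± 2.94 and 35.9% ± 0.216. Upf1 and Smg8 had coding transcripts only. Transcripts annotated as decay substrates held 2.36% ± 0.321 in WT and 2.38% ± 0.402 in Prmt9 KO, and for both types the genotypes overlapped (exact two-sided permutation test, p = 0.5 for retained introns and p = 1 for decay substrates).

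No transcript of the 9 genes was called. edgeR tested 38 of the 45 and called 0, as it did over all 75661 transcripts (0%), and at an unadjusted p below 0.05 it held 0 of the 38, against 1.61% of all. DESeq2 called 0 as well, of 43 tested, against 0.112% of 99671. When the mice numbered 1 were left out, edgeR called 0 and held 3 of the 38 at an unadjusted p below 0.05, against 9.72% of all. They were Upf3b-202 (log2 fold change 1.21 ± 0.30 SE), Upf1-202 (-0.13 ± 0.04) and the retained-intron transcript Smg9-205 (-0.29 ± 0.10), with 0.398 the lowest adjusted p. Over all 6 mice the lowest p was 0.217, for Smg6-203, a retained-intron transcript with a mean of 0.19 TPM (edgeR, adjusted p = 1). Transcript usage, the share that each transcript takes of its gene, was tested with edgeR for the 8 genes in which 2 or more transcripts passed the filter, which leaves out Smg8. It called 0 of the 8, against 0.17% of 13560 genes, and held 0 at an unadjusted p below 0.05, against 1.73%. limma on voom weights called 0 of the 8 too, against 0.0295%. The lowest p in both tests was that of Upf3b (an unadjusted p of 0.446 with edgeR). Without the mice numbered 1 edgeR called 0 of the 8 and held 0 at an unadjusted p below 0.05, against 7.9% of all genes.

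Splicing events were built from annotated exons, and each is given by its PSI, the TPM of transcripts with the longer form divided by the TPM of transcripts with either form. Such a PSI sets whole transcript models against each other, and some differ in length. Smg6-202 has 4078 bases and Smg6-201 5848, Upf3b-202 780 and Upf3b-201 2344, and Smg5-202 1010 and Smg5-201 4448. The shorter model of each pair has no annotated 5′ untranslated region. Whether model length enters into the PSI was not tested. The 9 genes held 13 splicing events, 9 of them within the limits for the test. limma called 0 of the 9, with 0% of 24105 events called in all, and 0 of the 9 had an unadjusted p below 0.05, against 3.2% of all. The authors tested reads with rMATS, cryptic events included, and reported many altered events in the knockout. TPM of annotated transcripts is an unlike measure, so the counts here cannot be set against theirs. limma on the 4 mice numbered 2 or 3 called 0 of 9 and held 1 at an unadjusted p below 0.05, against 9.96% of all. That 1 was the Upf3b exon and is not taken as a result. The exon came within the limits only through Prmt9 KO, where its mean PSI was higher. The 31 bases of Smg5 came within them only through WT, again the genotype with the higher mean. Such a filter favours events that differ, so the p-values of these 2 events are not given and no conclusion is drawn from them. Both are among the 9 in the counts above, so for these 2 events the counts are no support in either direction. The stretches behind the events of 5 genes are shown because they change the coding sequence or end it early.

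Upf1 has an alternative 5′ splice site that adds 33 bases at chr8:70339982-70340014, read from the minus strand. The added bases, in capitals below within Upf1-201, encode the known insertion in the regulatory loop of the helicase, and they keep the reading frame.
Upf1-201: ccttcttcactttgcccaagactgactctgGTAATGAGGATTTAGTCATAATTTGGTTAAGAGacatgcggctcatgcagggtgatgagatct
The longer form had a PSI of 0.278, 0.250 and 0.232 in the WT mice and of 0.225, 0.271 and 0.271 in the Prmt9 KO mice. WT replicate 1 was the highest and Prmt9 KO replicate 1 the lowest, and the genotypes overlapped. The difference in PSI was 0.0028 (exact two-sided permutation test, p = 1). It was 0.030 without the mice numbered 1, with both Prmt9 KO mice above both WT mice. The shorter Upf1-202 carried the rest, at 18.2 to 25.4 TPM in the 5 mice other than WT replicate 1, where it was at 15.1 TPM.

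Upf2 has a pair of alternative 3′ splice sites of 3 bases each, at chr2:6040109-6040111 and chr2:6046898-6046900 on the plus strand. The optional codons, in capitals, are present in the full-length Upf2-201 and absent from Upf2-202, a model of 11 exons whose 5′ end is incomplete.
Upf2-201 first site: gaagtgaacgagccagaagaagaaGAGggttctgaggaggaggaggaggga
Upf2-201 second site: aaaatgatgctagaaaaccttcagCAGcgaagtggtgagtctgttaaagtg
Both sites separate the same 2 transcripts and so share their PSI, which was 0.512, 0.777 and 0.782 in WT and 0.612, 0.777 and 0.772 in Prmt9 KO. The 4 mice numbered 2 or 3 lay within 0.772 to 0.782, and only the mice numbered 1 were lower. The difference in PSI was 0.030 over all mice and -0.0046 without those mice. Upf2-201 was low in those mice, at 4.65 TPM in WT replicate 1 and 6.77 TPM in Prmt9 KO replicate 1 against 14.97 to 16.05 TPM in the others, while Upf2-202 was at 4.18 to 4.60 TPM in all 6 mice. An exon of 300 bases at chr2:6051885-6052184, found in a short processed transcript, had a PSI of 0.043 to 0.061 in all mice.

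Upf3b has an exon of 39 bases at chrX:37099066-37099104, read from the minus strand and shown in capitals within Upf3b-202. Its length is a multiple of 3.
Upf3b-202: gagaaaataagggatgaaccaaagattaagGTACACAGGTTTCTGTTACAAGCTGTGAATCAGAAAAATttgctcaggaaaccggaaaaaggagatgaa
The exon was rarely included, with a PSI of 0, 0.027 and 0.034 in the WT mice and of 0.026, 0.055 and 0.077 in the Prmt9 KO mice. The genotypes overlapped, since Prmt9 KO replicate 1 lay below WT replicates 2 and 3. The mean PSI over the WT mice was 0.020 ± 0.018 and over the Prmt9 KO mice 0.053 ± 0.025 (SD, n = 3), a difference of 0.032 that is under the limit of 0.05. It was 0.035 without the mice numbered 1, and 0.0097 when PSI was taken from estimated counts in place of TPM. The transcript was scarce, listed at 0 TPM in WT replicate 1 and at 0.439 to 1.66 TPM in the other mice. In WT replicate 1, 37.4% of all transcripts stood at 0, against 22.8% to 24.8% in the other mice.

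Smg6 has an exon of 62 bases at chr11:74981852-74981913 on the plus strand, whose length is not a multiple of 3. It is part of the coding Smg6-201 and is skipped in Smg6-202, which is annotated as a decay substrate. In capitals are the exon in the first sequence and, in the second, the stop codon that ends the annotated coding sequence of Smg6-202, where the last 27 bases lie past the junction.
Smg6-201: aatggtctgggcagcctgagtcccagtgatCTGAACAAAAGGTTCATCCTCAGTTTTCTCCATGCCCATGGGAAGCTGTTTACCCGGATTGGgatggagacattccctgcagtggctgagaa
Smg6-202: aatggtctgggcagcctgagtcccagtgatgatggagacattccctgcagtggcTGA
The last junction of Smg6-202 lies 1379 bases past that stop. The PSI of the exon, which sets Smg6-201 against the shorter model Smg6-202, was 0.608, 0.806 and 0.776 in the WT mice. It was 0.622, 0.772 and 0.741 in the Prmt9 KO mice. The mice numbered 1 were again lowest and near each other, and replicates 2 and 3 of Prmt9 KO lay below those of WT. The difference in PSI was -0.018 (exact two-sided permutation test, p = 0.7), and -0.034 without the mice numbered 1. Smg6-202 itself was at 4.03 ± 0.390 TPM in the WT mice and 4.73 ± 0.592 TPM in the knockouts (SD, n = 3).

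Smg5 has a decay substrate of its own, Smg5-202, made with an alternative 3′ splice site that adds 31 bases at chr3:88349111-88349141 on the plus strand. The stop codon of its annotated coding sequence, in capitals, is completed by the first added base, and the last junction lies 434 bases further on.
Smg5-202: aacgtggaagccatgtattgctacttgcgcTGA
The PSI of the added bases was 0.033, 0.064 and 0.055 in the WT mice and 0.041, 0.046 and 0.047 in the Prmt9 KO mice. WT replicates 2 and 3 were the highest and WT replicate 1 the lowest, with all Prmt9 KO mice between them (difference -0.0058, and -0.013 without the mice numbered 1). The third annotated decay substrate, Smg1-204, was listed at or below 0.0028 TPM in every mouse.

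The events left were retained introns of Smg9 (86 bases, PSI 0.020, 0.108 and 0.116 in WT and 0.047, 0.065 and 0.091 in Prmt9 KO) and of Smg5 (244 bases, 0.682, 0.555 and 0.612 in WT and 0.488, 0.566 and 0.720 in Prmt9 KO). Neither separated the genotypes, and the Smg9 intron was lowest in the mice numbered 1. Without those mice the difference in PSI went from -0.014 to -0.034 for Smg9 and from -0.025 to 0.060 for Smg5. The PSI of the Smg5 intron sets only Smg5-204 (mean 7.09 TPM) against Smg5-207 (4.83 TPM). It leaves out the coding Smg5-201 (35.8 TPM), so it is not the share of all Smg5 mRNA that keeps the intron.

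**Figure D4:**
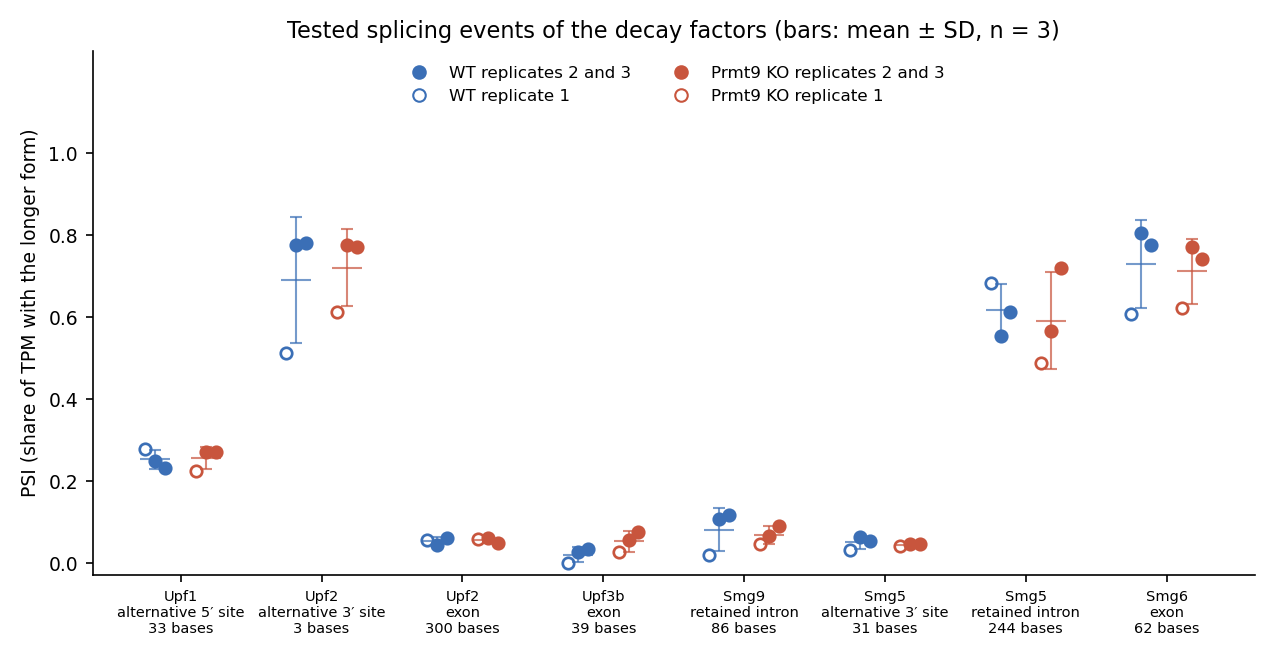
PSI (vertical axis) of the tested splicing events of the decay factors in each mouse, the pair of Upf2 sites drawn once, with WT in blue, Prmt9 KO in red, open circles for the mice numbered 1 and bars for the mean ± SD of 3 mice. The genotypes overlap in every event, and both open circles lie lowest for the Upf2 sites, the Upf3b exon, the Smg9 intron, the 31 bases of Smg5 and the Smg6 exon.

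Isoform shares were compared mouse by mouse for the 27 transcripts with a mean of at least 1 TPM in the 8 genes that have at least 2 of them. The genotypes did not overlap for 1 of the 27, against 9.22% of 41530 such shares over all genes. This was Smg9-206, a retained-intron transcript of 1103 bases, which took 0.151, 0.126 and 0.147 of Smg9 TPM in the WT mice and 0.181, 0.165 and 0.162 in the Prmt9 KO mice. All Prmt9 KO mice lay above all WT mice, by 0.028 on average (exact two-sided permutation test, p = 0.1, the smallest that 3 against 3 can give). Its level was 5.54 ± 0.843 TPM in the WT mice and 6.58 ± 0.239 TPM in the knockouts (SD, n = 3, log2 fold change 0.19, edgeR, adjusted p = 1). Without the mice numbered 1 the shares of 16 of the 27 did not overlap, against 43.2% of all. It was 9 with WT replicate 1 alone left out (29.4% of all) and 5 with Prmt9 KO replicate 1 alone left out (20.5%), and 0 of 6 when only coding transcripts were taken (9.65%). Shares of the same gene sum to 1 and are not independent.

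The mRNAs of the 9 genes were also compared with those of other genes in their own structure. Their main coding transcripts had a median length of 4448 bases, against 2834.5 over 13494 genes, and a median coding length of 3054 bases, against 1320. Their 3′ untranslated regions had a median of 958 bases, near the 923.5 of all genes, and ranged from 221 in Smg8 to 4233 in Smg1, a length that 5.80% of all genes exceeded. An ATG upstream of the start codon was found in 4 of the 9 (Upf2, Smg1, Smg9 and Smg5), against 48.7% of all genes. In none of the 9 did the stop codon of the main transcript lie more than 50 bases before the last junction, an arrangement found in 0.459% of all genes; the nearest was Upf1, whose last junction lies 3 bases past the stop.

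The rest of the pathway was covered by 3 lists. The exon junction complex, whose deposit marks spliced mRNA, had 7 of 7 genes tested and 0 called in either direction by edgeR, against 0% of all genes. At an unadjusted p below 0.05 it held 0, against 1.24%. All 7 log2 fold changes were below 0, with a median of -0.14, against -0.01 over all genes tested. How many of all genes lay below 0 was not counted, and the list was chosen with earlier results of these data known. No conclusion is drawn from the shared sign. Eif4a3, the RNA-clamping helicase of the complex, was at 111, 63.1 and 66.2 TPM in WT and 92.5, 64.5 and 65.9 TPM in Prmt9 KO, so that the mice numbered 1 were here the highest. Magohb was at a log2 fold change of -0.35 ± 0.50 (SE) and Casc3 at -0.08 ± 0.09. Without WT replicate 1 the median of the list was 0.24, so its sign rests on that mouse, and without Prmt9 KO replicate 1 it was -0.35. Without both it was -0.0078, with 1 of 7 (Casc3) at an unadjusted p below 0.05, against 16.4% of all genes.

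The other decay factors, among them decapping enzymes, release factors and Xrn1, had 16 of 16 tested and 0 called, against 0% of all genes. They held 0 at an unadjusted p below 0.05, against 1.24%, and had a median log2 fold change of 0.02. In TPM, 3 of the 16 did not overlap between the genotypes, each with Prmt9 KO higher. Over all genes it was 5.97% in either direction and 4.82% with Prmt9 KO higher. The smallest p-values belonged to Ncbp2 of the nuclear cap-binding complex (log2 fold change -0.06), Pnrc2, which links UPF1 to decapping (-0.08), and Pabpc1, the cytoplasmic poly(A)-binding protein (0.08), the lowest of them 0.545 (edgeR). The TPM of Pabpc1 was 150, 155 and 149 in WT and 192, 163 and 166 in Prmt9 KO and did not overlap, by 22.4 TPM on average (exact two-sided permutation test, p = 0.1). It alone of the 16 had, without the mice numbered 1, an unadjusted p below 0.05, against 16.4% of all genes (log2 fold change 0.12, edgeR, adjusted p = 0.184), and the median of the list was -0.0061. In limma on log2(TPM + 1) and log2(TPM + 0.1) that median was 0.090 and 0.099.

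The third list held mRNAs known to be degraded by the pathway, of which 10 of 17 were tested; Gas5, 5 Snhg genes and Zfas1 were not analysed here. edgeR called 0 of the 10 in either direction, against 0% of all genes, and held 1 at an unadjusted p below 0.05, against 1.24%. All 10 log2 fold changes were below 0 with a median of -0.24, against -0.01 over all genes tested. The share of all genes below 0 was not counted, and this list too was chosen with earlier results of these data known. No conclusion is drawn from the shared sign. Robo3, an axon guidance receptor, was at 31.4, 37.3 and 38.1 TPM in WT and at 28.4, 32.9 and 28.9 TPM in Prmt9 KO, with overlap through WT replicate 1 and Prmt9 KO replicate 2 (log2 fold change -0.34 ± 0.10 SE, edgeR, unadjusted p of 0.0164, adjusted p = 1). Gadd45b, a stress-induced gene, was at 19.6, 23.5 and 24.3 TPM in WT and at 15.05, 18.4 and 22.5 TPM in Prmt9 KO, and overlapped as well (log2 fold change -0.32 ± 0.14 SE, edgeR, unadjusted p of 0.0635, adjusted p = 1). In TPM 2 of the 10, Atf4 and Gadd45g, did not overlap and lay lower in Prmt9 KO. Over all genes it was 5.97% in either direction and 1.15% with Prmt9 KO lower. Gadd45g, of the same family as Gadd45b, was at 36.4, 36.2 and 38.2 TPM in WT and 30.5, 34.8 and 35.8 TPM in Prmt9 KO (exact two-sided permutation test, p = 0.1), and its log2 fold change went from -0.21 to -0.07 without the mice numbered 1. With a term for the mice numbered 1, edgeR held 5 of the 10 at an unadjusted p below 0.05, against 9.74% of all genes, and called 0. Without those mice it held 5 of the 10, against 16.4%, and the median was -0.16, while limma on log2(TPM + 1) and log2(TPM + 0.1) gave a median of -0.14. In each alternative run, at least 9 of the 10 stayed below 0. Several of the 10, such as Arc, Atf3 and Gadd45b, are also known as activity- or stress-responsive genes.

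**Figure D5:**
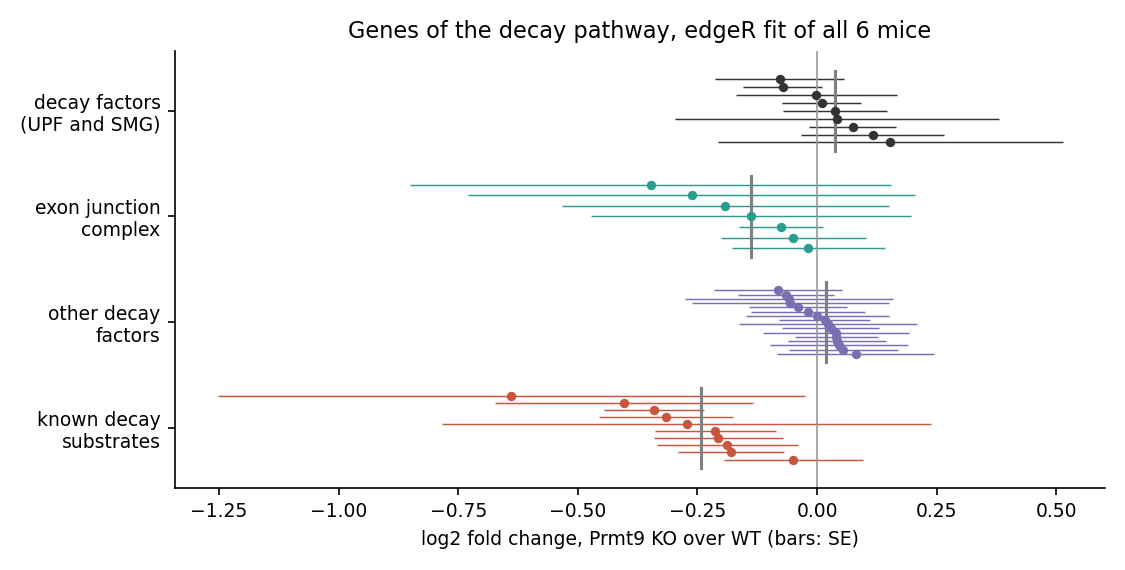
Log2 fold change of Prmt9 KO over WT (horizontal axis) with its standard error for each gene of the 4 lists, from the edgeR fit of all 6 mice, and the median of each list as a grey line. The 9 decay factors lie on both sides of 0, while all 7 genes of the exon junction complex and all 10 known substrates lie below 0. Without WT replicate 1 this held for 1 of the 7 and 9 of the 10. None was called, and the share of all genes that lay below 0 was not counted.

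The profile of the 9 genes over the 6 mice was described by their mean log2(TPM + 1), centred on 0. It stood at -0.48 in WT replicate 1, -0.18 in Prmt9 KO replicate 1 and 0.16 to 0.18 in the other mice. Among the other genes tested, Fam173b, Cog1 and Dcaf5 had the profiles nearest to it, at root mean square distances of 0.0091, 0.011 and 0.014, against a median of 0.22 over all genes. As they were picked for being nearest, their place under that median was set by the choice. Of the 9 genes, Upf1 (0.059) and Smg6 (0.065) lay nearest to their own mean and Smg1 (0.23) and Upf2 (0.20) farthest.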

How the data were processed

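The authors quantified each library with kallisto (0.46.0 in the submitters' processing notes) and deposited estimated counts and TPM per transcript, and a gene table of TPM that equalled the sums of transcript TPM for all 9 genes within 0.001. Strand use and the transcript set given to kallisto are not given in the sources used here. Transcripts were matched by identifier to GENCODE M21 (116622 of 118783), and sequences were read from its transcripts. Between 0% (Smg8) and 3.53% (Upf3a) of the 31-base words of a gene's transcripts also occurred in other genes.

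Estimated counts were summed per gene, rounded and fitted with edgeR 4.0.16 (TMM, filterByExpr, quasi-likelihood test, Benjamini-Hochberg over all genes). The call for a gene or transcript needed an adjusted p below 0.01 with a fold above 1.5. Transcript usage was tested with diffSpliceDGE (Simes; limit on the adjusted p 0.01). Splicing events were tested with limma 3.58.1 on the log2 ratio of TPM with the longer to TPM with the shorter form, each plus 0.1. They needed 1 TPM or more per mouse and, for 1 genotype, a mean PSI from 0.05 to 0.95, and a call needed an adjusted p no higher than 0.01 with a PSI difference no smaller than 0.05. DESeq2 1.42.0 was an alternative. The scripts were tested on simulated data.

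Groups came from the labels, with 3 separate mice each. Same-numbered mice deviated together from their genotype means (correlations 0.553, 0.415 and 0.383), but replicates 2 and 3 did so across numbers as well (0.417 and 0.394). The labels name no pairs. The main tests and the permutation tests took the mice as unpaired, and the number as a block was an alternative run. Named were all 9 genes, Prmt9, the 3 genes of each other list with the smallest p, the 3 nearest profiles, transcripts with a mean of at least 1 TPM and events within the limits; Smg6-203, Upf3b-202 and the list members given as examples were named outside that rule. The genes and lists were chosen with earlier results of these data known, and 1 gene of the list of other decay factors is not reported here.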

Additional observations from a re-analysis of the deposited data

How the results depend on the processing

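No decay factor gene, transcript, usage test or event was called under any alternative run. With the replicate number as a block, 0 of the 9 genes were called and the lowest p was 0.132 (edgeR); the block changed no other call. Leaving out 1 mouse at a time, between 0 and 4 genes had TPM that did not overlap (4 without Prmt9 KO replicate 1, against 19.7% of all genes, and 2 without WT replicate 1, against 34.8%), and TMM-normalized CPM gave 1 (Smg9), against 6.36%. Non-overlapping shares numbered 1 to 9 (9 without WT replicate 1, against 29.4% of all shares, and 5 without Prmt9 KO replicate 1, against 20.5%) and 0 among coding transcripts only, against 9.65%. Leaving out both mice numbered 1, an alternative chosen after seeing the data, gave 6 genes, against 51.2%, and 16 shares, against 43.2%.

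Log2 fold changes near 0 changed sign. Leaving out single mice moved Upf1 from -0.17 to 0.015, Upf2 from -0.21 to 0.28, Upf3a from -0.00060 to 0.039, Upf3b from -0.0077 to 0.19, Smg1 from -0.14 to 0.35, Smg8 from -0.025 to 0.083, Smg6 from -0.13 to 0.10, Eif4a3 from -0.43 to 0.24, Magohb from -0.64 to 0.42, Pnrc2 from -0.15 to 0.048, Ncbp2 from -0.12 to 0.0090 and Pabpc1 from -0.028 to 0.24. Smg6 was at 0.0074 with the block or the term for the mice numbered 1, at 0.0071 without a filter and at 0.086 and 0.090 in limma on log2(TPM + 1) and log2(TPM + 0.1). In those limma fits Upf1 was at 5.4e-05 and 0.00075 and Pnrc2 at 0.0054 and 0.0055. Magohb was at 0.16 without both mice numbered 1. For Prmt9 the adjusted p passed 0.01 with DESeq2, with the term and without both mice. Each of the 9 genes held at least 3304 estimated counts in every mouse, and the intervals of their folds were wider with the mice numbered 1 than without them.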

Other observations

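Over all genes with a coding transcript, transcripts annotated as decay substrates held 2.49%, 2.55% and 2.57% of TPM in the WT mice and 2.69%, 2.58% and 2.62% in the Prmt9 KO mice. The genotypes did not overlap, and differed by 0.093 percentage points (exact two-sided permutation test, p = 0.1, the smallest that 3 against 3 can give). Without the mice numbered 1 the difference was 0.040 percentage points. In the 9 decay factor genes the same share came to 2.36% ± 0.321 for WT and 2.38% ± 0.402 for Prmt9 KO (SD, n = 3), with overlap. The shares of coding, retained-intron and processed transcripts over all genes were compared as well. Their genotypes overlapped (exact two-sided permutation test, p = 0.7, 0.8 and 0.6), so decay substrates were the only type compared that did not overlap.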
